A study of Rattus norvegicus with 140 samples.

Results

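The cytosolic DnaJ (Hsp40) cochaperones examined here are 10 genes, Dnaja1, Dnaja2, Dnaja4, Dnajb1, Dnajb2, Dnajb4, Dnajb5, Dnajb6, Dnajc5 and Dnajc7, among the 17245 genes that the array platform's annotation names singly. Their members were taken as the transcript IDs whose annotation gives one of these symbols alone, which yielded 13 IDs out of 29214 (2 for Dnaja4, 3 for Dnajb6 and 1 for each other gene). One further ID that lists Dnajb6 beside another gene was not counted. In the comparisons, 4 genes with 5 IDs (Dnaja1, Dnaja4, Dnajb1, Dnajb4) were set apart as inducible and 6 genes with 8 IDs as constitutive, from general knowledge of the family and with earlier results of these arrays known.

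Male Fischer 344 rats aged 2 to 3 months, carrying implanted temperature probes, were heated in an incubator at 37°C until the core temperature reached 41.8°C (Tc,Max) and were killed then or after 24 h or 48 h of recovery at 22°C. Control rats were kept unheated and killed at matching times. The sources differ on whether they spent a short time in the unheated incubator (the labels) or were never placed in it (the study's methods). Heart, liver, kidney and lung of the same rats were hybridised to 140 whole-transcript arrays, with 6 heated and 6 control rats per organ and time, except 5 heated hearts at Tc,Max, 5 heated and 5 control livers at 48 h, and 5 heated lungs at 48 h. The labels give 37 rat tags, and among the 48 h controls 1 tag stands on liver and lung alone and another on heart and kidney alone, so whether these are 1 rat is not settled. The heart array labelled heated, 48 h, replicate 4 was left out, so 5 heated hearts remained at that time. On that array the lung surfactant transcript Sftpc stood at an intensity of 8695, against at most 173 on any other heart array, and myoglobin (Mb) at 19.0, against 4975 to 8562 on the others. Heart, kidney and lung arrays otherwise showed all 5 of their fixed organ markers above every array of the other organs, and liver showed 3 of 5, the exceptions being both IDs of Cyp2e1. This check does not exclude RNA of a second organ. At Tc,Max the summed hepatocyte markers were 342 to 3871 in heated hearts, against 346 to 692 in control hearts. In heated lungs they were 236 to 5080, against 300 to 540, and in heated kidneys 2419 to 8621, against 1563 to 6105. Heated livers had 20900 to 22870. The part of such signal in the member values was not tested.

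DnaJ proteins carry a J domain with which they deliver unfolded clients to Hsp70 and stimulate its ATPase. Class A and class B members bind clients themselves, whereas class C members use the J domain for more specialised tasks. In mammalian cells heat releases the transcription factor HSF1, which binds heat shock elements, arrays of inverted GAA units upstream of chaperone genes, and some DnaJ genes belong to its targets while others are transcribed steadily.

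The promoters of Dnaja1 and Dnajb1 are shown because these genes responded in every organ and hold such inverted units, and that of Dnaja4 because it responded most unevenly between organs. RefSeq windows of the rat assembly GRCr8, from 250 bases before to 50 bases after the annotated start, existed for 8 of the 10 members, Dnaja2 and Dnajb4 being those not matched. Capitals mark GAANNTTC (N being any base), which reads the same on both strands, and the longer GAANNTTCNNGAA.
Dnaja1, chr5:60638154-60638453, plus strand: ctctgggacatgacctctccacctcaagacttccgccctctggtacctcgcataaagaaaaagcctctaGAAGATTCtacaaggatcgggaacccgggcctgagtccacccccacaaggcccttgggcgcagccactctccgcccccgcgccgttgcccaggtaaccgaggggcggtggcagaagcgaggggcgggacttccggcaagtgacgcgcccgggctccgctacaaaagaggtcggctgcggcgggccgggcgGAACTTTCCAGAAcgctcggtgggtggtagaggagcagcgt
Dnajb1, chr19:41431092-41431391, minus strand: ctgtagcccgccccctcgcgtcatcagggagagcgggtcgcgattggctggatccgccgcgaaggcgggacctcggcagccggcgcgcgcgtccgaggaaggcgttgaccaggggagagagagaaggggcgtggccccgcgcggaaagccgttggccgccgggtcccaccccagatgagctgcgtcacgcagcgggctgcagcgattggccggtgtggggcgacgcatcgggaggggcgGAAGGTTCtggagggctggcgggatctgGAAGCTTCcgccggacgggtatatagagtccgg
Dnaja4, chr8:63981337-63981636, plus strand: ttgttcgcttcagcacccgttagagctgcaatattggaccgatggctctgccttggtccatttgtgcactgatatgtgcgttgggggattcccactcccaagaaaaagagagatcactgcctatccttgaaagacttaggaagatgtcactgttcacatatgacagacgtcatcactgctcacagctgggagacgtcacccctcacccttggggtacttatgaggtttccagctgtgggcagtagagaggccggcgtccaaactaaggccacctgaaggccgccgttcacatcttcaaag
Counting the start as position 1, GAANNTTC began at 10 and once further upstream in Dnaja1 and at -11 and 18 in Dnajb1, and was not found in the Dnaja4 window. Among the constitutive genes with a window, Dnajb6 held 1 match, at -162, and Dnajb2, Dnajb5, Dnajc5 and Dnajc7 held none. At position 10 the Dnaja1 match extended to GAANNTTCNNGAA, and so overlapped TTCNNGAA at 15. GAANNTTC occurred in 8.59% of all 33469 windows of the same length, TTCNNGAA in 8.77% and GAANNTTCNNGAA, searched on both strands, in 0.798%. These matches describe letters in a window and not bound sites.

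Dnajb1, the class B cochaperone that works with Hsp70 and Hsp110 on aggregates, showed the largest rise of the family in heart, kidney and lung. In hearts at Tc,Max its intensity was 2881, 2230, 2256, 1701 and 1893 in the heated rats, against 63.9, 71.5 and 90.1 (lowest, median and highest of 6) in control rats. Every heated heart stood far above every control heart. On the log2(intensity + 16) scale used throughout, with the standard error (SE) of the fit, heated hearts exceeded control hearts by 4.59 ± 0.13, which is 24.1-fold (limma across all IDs, Benjamini-Hochberg adjusted p = 1.61e-23). Heated livers had 2061, 2927 and 3841, against 112, 150 and 216 in control livers (lowest, median and highest of 6 each). Heated kidneys had 710, 896 and 1447, against 71.4, 89.0 and 109 in control kidneys. Heated lungs had 989, 1209 and 1804, against 90.6, 102 and 154 in control lungs. Heated and control rats did not overlap in any organ, and the differences were 4.10 ± 0.16 for liver, 3.28 ± 0.14 for kidney and 3.39 ± 0.12 for lung. In whole organs a change in the number of cells of a type and a change of RNA per cell cannot be told apart.

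Dnaja1, a farnesylated class A cochaperone of Hsc70, reached nearly one level in every organ after heating although its control levels differed. Heated hearts had 4940, 4297, 4343, 3995 and 4026, against 495, 603 and 838 (lowest, median and highest of 6) in control hearts. Heated livers had 3403, 3818 and 4243, against 1283, 1439 and 1555 in control livers. All heated arrays exceeded all control arrays in both organs. Heated kidneys had a median of 3558, against 961 in control kidneys, and heated lungs a median of 4010, against 710 in control lungs, again without overlap. The mean of the heated group spanned 0.30 between the organs on the log2 scale, against a span of 1.17 for the mean of the control group, a description that sets levels of separately normalised organs side by side. The differences were accordingly 2.74 ± 0.10 for heart, 1.39 ± 0.09 for liver, 1.85 ± 0.11 for kidney and 2.45 ± 0.10 for lung, with adjusted p of 7.46e-14 or below in each. A separate ID annotated to the pseudogene Dnaja1-ps4 differed by 0.26 (heart), -0.21 (liver), -0.18 (kidney) and 0.02 (lung), with overlapping groups in each.

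Dnaja4, a class A paralogue of Dnaja1, was the member whose response differed most between organs, on both IDs that the annotation gives this symbol. No coordinates were used to check that the 2 Dnaja4 IDs and the 3 Dnajb6 IDs lie in those genes. For ID 10702405, heated livers had 925, 1650 and 2316, against 40.9, 58.0 and 85.1 in control livers (lowest, median and highest of 6 each). For ID 10910084, heated livers had 691, 1002 and 1876, against 23.6, 24.6 and 34.5 in control livers. Liver had the lowest control median of the 4 organs on both IDs, and every heated liver was far above every control liver. In heart, ID 10702405 read 1992, 1858, 1764, 1498 and 1327 in heated rats, against 432, 614 and 801 (lowest, median and highest of 6) in control rats. The differences of this ID were 1.45 ± 0.19 for heart, 4.38 ± 0.18 for liver, 2.48 ± 0.11 for kidney and 2.28 ± 0.18 for lung. ID 10910084 differed by 1.54 ± 0.18, 4.66 ± 0.20, 2.24 ± 0.12 and 2.25 ± 0.24 in the same organs, and heated and control arrays did not overlap in any organ for either ID. The control livers of ID 10910084 lay below the median intensity of every liver array (37.2 to 47.0), where the offset of 16 shrinks differences, and with an offset of 1 the liver difference was 5.26 for ID 10910084 and 4.70 for ID 10702405.

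Dnajb4, a class B relative of Dnajb1, showed the narrowest range between organs among the inducible members. Heated hearts had 4555, 3617, 3714, 3431 and 3790, against 717, 824 and 973 (lowest, median and highest of 6) in control hearts. The median was 2421 in heated livers, against 344 in control livers, 1790 in heated kidneys, against 453 in control kidneys, and 1794 in heated lungs, against 479 in control lungs. Groups were again apart everywhere, with differences of 2.17 ± 0.09 for heart, 2.66 ± 0.12 for liver, 1.82 ± 0.11 for kidney and 1.88 ± 0.09 for lung.

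**Figure D1:**
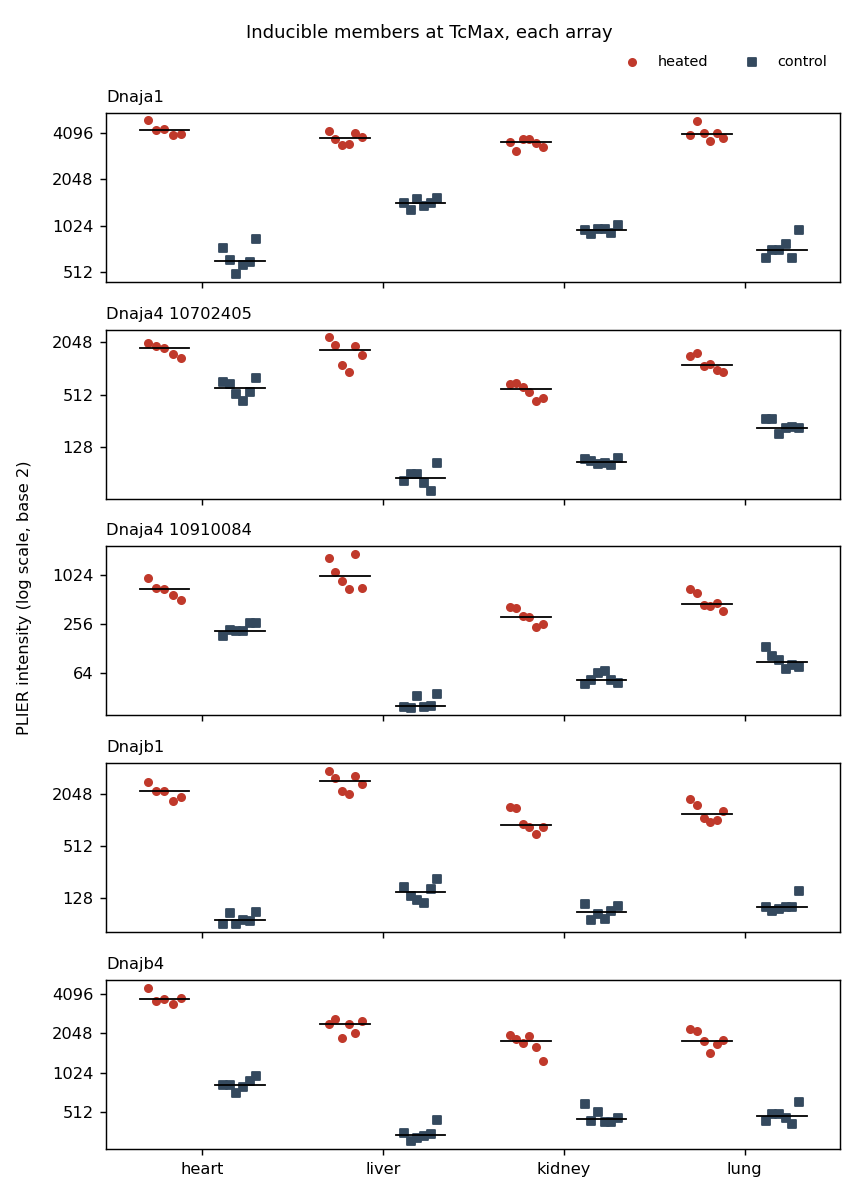
PLIER intensity (log scale) of the 5 inducible IDs at Tc,Max, 1 point per array, heated left of control in each organ, with the median as a bar. Heated points lie above all control points in every panel and organ, and heated Dnaja1 medians lie between 3558 and 4297 while control medians lie between 603 and 1439.

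By the criterion of an adjusted p under 0.05 and a 2-fold change, all 5 inducible IDs were called higher in each organ, where 0.818% of all IDs were called higher for heart, 1.22% for liver, 0.767% for kidney and 0.883% for lung. Lower calls made up 0.192%, 0.811%, 0.127% and 0.315% of all IDs, and included no member. All heated arrays lay above all control arrays for 1.83% of IDs in heart, 3.18% for liver, 2.97% for kidney and 4.46% for lung, and below them for 1.48%, 5.58%, 3.04% and 4.83%. None of the 8 constitutive IDs was called by that criterion in any organ. The median difference of the inducible IDs was 2.17 for heart, 4.10 for liver, 2.24 for kidney and 2.28 for lung, against 0.09, 0.27, 0.09 and 0.13 for the constitutive IDs, in the same order of organs. Over all IDs the median was -0.02, -0.04, -0.04 and -0.01 in these organs. Of the 8 constitutive IDs, 2 for heart, 5 for liver, 3 for kidney and 3 for lung had an unadjusted p under 0.05, as did 14.8%, 29.9%, 19.3% and 25.7% of all IDs.

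Without the fold minimum, the constitutive set was not uniform. Of its 8 IDs, 1 passed the adjusted p for heart, 5 for liver, 2 for kidney and 3 for lung, all upward, where 2.7%, 7.72%, 3.97% and 6.96% of all IDs passed upward in these organs and 2.5%, 12.4%, 4.85% and 9.06% downward. Dnajb2, whose protein carries ubiquitin-interacting motifs beside its J domain, rose in liver, kidney and lung. Heated lungs had 513, 645 and 653, against 350, 390 and 405 in control lungs (lowest, median and highest of 6 each), a difference of 0.66 ± 0.10 (adjusted p = 3.8e-06). Heated livers had 688, 724 and 923, against 462, 521 and 610 in control livers, a difference of 0.55 ± 0.08 (adjusted p = 6.53e-06). The groups did not overlap in lung and liver. Kidney overlapped and gave 0.27 ± 0.08 (adjusted p = 0.0418). In heart, 4 heated rats read 973, 918, 979 and 951 and the other heated rat 672, inside the control range of 617 to 765, and the difference of 0.38 ± 0.12 did not pass (adjusted p = 0.0544).

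Dnajb5, a class B member close in sequence to Dnajb1 and Dnajb4, responded in heart and lung. Heated hearts had 869, 916, 755, 879 and 884, against 466, 495 and 635 (lowest, median and highest of 6) in control hearts. All heated hearts were higher, by 0.69 ± 0.11 (adjusted p = 2.68e-05). Heated lungs had 105, 112 and 123, against 67.4, 81.5 and 94.96 in control lungs, also without overlap, a difference of 0.40 ± 0.09 (adjusted p = 0.000703). Kidney gave 0.21 ± 0.11 (adjusted p = 0.33), and liver -0.08 ± 0.12 (adjusted p = 0.721).

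Dnajc7, whose tetratricopeptide repeats bind both Hsp70 and Hsp90, rose in liver by 0.40 ± 0.09, in kidney by 0.29 ± 0.06 and in lung by 0.27 ± 0.09 (adjusted p = 0.000531, 0.00143 and 0.0235), with no overlap between heated and control rats in these 3 organs. Its heated hearts had 569, 565, 548, 527 and 464, against 433, 494 and 582 in control hearts, which overlapped. Dnajb6, known for suppressing polyglutamine aggregation, rose in liver by 0.34 ± 0.09 for ID 10728464 and by 0.35 ± 0.09 for ID 10850603 (adjusted p = 0.00379 and 0.00383). Its other ID, 10859807, did not pass there, at -0.07 ± 0.09. Dnaja2, a class A cochaperone with steady expression, rose in liver by 0.21 ± 0.08 (adjusted p = 0.0465) with overlapping groups, and in kidney it differed by 0.16 ± 0.07, which did not pass (adjusted p = 0.164) although the heated arrays, at 453 to 495, stood above the control arrays, at 397 to 450. Dnajc5, the cysteine string protein of secretory vesicles, differed by 0.01 to 0.08 and passed in no organ.

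**Figure D2:**
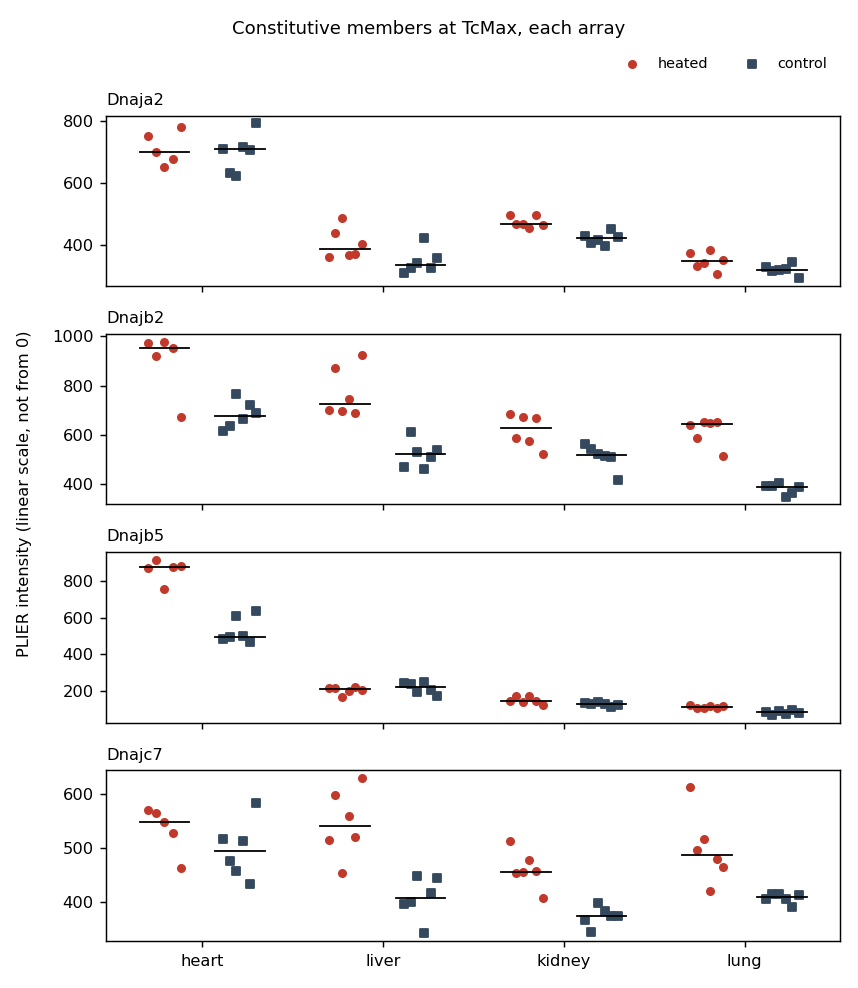
PLIER intensity (linear scale) of Dnaja2, Dnajb2, Dnajb5 and Dnajc7 at Tc,Max, 1 point per array, heated left of control in each organ, with the median as a bar. Heated and control points separate for Dnajb5 in heart and lung, for Dnajb2 in liver and lung, for Dnaja2 in kidney, and for Dnajc7 in liver, kidney and lung.

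The family's responses were compared between organs in 1 fit of all arrays with the rat as a random block, over 6 organ pairs, and an ID was called at an adjusted p under 0.05. The Dnaja1 response was larger in heart than in liver by 1.35 ± 0.14 (adjusted p = 2.86e-14) and larger in heart than in kidney by 0.89 ± 0.14. It was smaller in liver than in lung by 1.06 ± 0.13 (a difference of -1.06) and smaller in kidney than in lung (-0.60 ± 0.13, adjusted p = 0.00243), while heart and lung differed by 0.29 ± 0.14 (95% interval 0.02 to 0.56, adjusted p = 0.333). Dnaja4 ID 10702405 responded less in heart than in liver (-2.93 ± 0.24, adjusted p = 5.67e-19) and less in heart than in kidney (-1.03 ± 0.24), and more in liver than in kidney (1.90 ± 0.24) or lung (2.10 ± 0.24). Its kidney and lung responses differed by 0.20 ± 0.24 (95% interval -0.27 to 0.67, adjusted p = 0.868). ID 10910084 gave -3.13 ± 0.27, 2.42 ± 0.27 and 2.41 ± 0.27 for heart minus liver, liver minus kidney and liver minus lung. With an offset of 1 these were -3.67, 2.74 and 2.83, and -3.23, 2.03 and 2.34 for ID 10702405, all still called.

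Dnajb1 responded more in heart than in kidney (1.31 ± 0.20, adjusted p = 1.34e-06) and lung (1.20 ± 0.20, adjusted p = 1.2e-05), while heart and liver differed by 0.49 ± 0.20 (95% interval 0.09 to 0.89, adjusted p = 0.149). Its liver response also exceeded that of kidney, by 0.82 ± 0.20. Dnajb4 responded more in liver than in kidney (0.84 ± 0.14) and lung (0.78 ± 0.14), and less in heart than in liver (-0.49 ± 0.14, adjusted p = 0.0162). Among constitutive members, the Dnajb5 response was larger in heart than in liver by 0.77 ± 0.15 (adjusted p = 9.32e-05). In all, 5 of the 13 IDs were called for heart against liver, 3 for heart against kidney, 2 for heart against lung, 6 for liver against kidney, 6 for liver against lung and 1 for kidney against lung. Of these, 2 were higher and 3 lower for heart minus liver, where 3.89% of all IDs were higher and 2.69% lower, and 5 were higher and 1 lower for liver minus kidney, where 1.94% were higher and 2.98% lower. For heart minus kidney 2 were higher and 1 lower (0.9% and 0.828% of all IDs), for heart minus lung 1 and 1 (1.36% and 1.15%), for liver minus lung 4 and 2 (2.2% and 3.68%), and for kidney minus lung 0 and 1 (1.02% and 0.914%). Calls with an adjusted p between 0.0117 and 0.0373 were lost when single rats were left out, as follows. Dnaja4 ID 10702405 for heart against lung was lost with 10 of the 12 rats, Dnajb6 ID 10728464 for liver against kidney with 8, Dnajb5 for liver against lung with 6, Dnajb4 for heart against liver and Dnaja1 for liver against kidney with 3 each, and Dnajb1 for liver against lung with 1 (the heated rat of kidney replicate 3), the highest adjusted p being 0.0952.

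**Figure D3:**
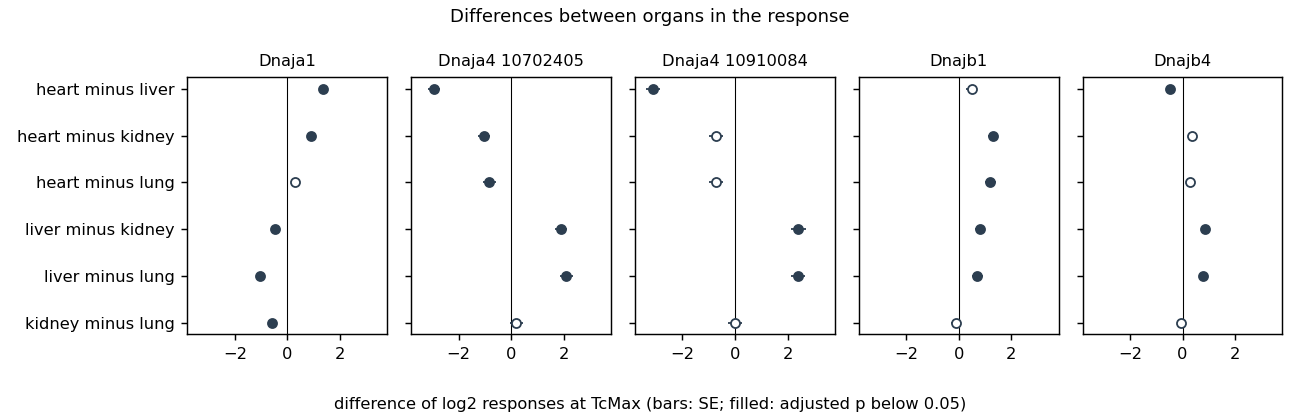
Difference of the log2 response at Tc,Max between organs for the 5 inducible IDs, 1 row per organ pair, with the SE as a bar and filled points at an adjusted p under 0.05. Dnaja1 lies at 1.35 and the Dnaja4 IDs at -2.93 and -3.13 for heart minus liver.

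Among rats heated to Tc,Max, the largest Dnajb1 and Dnaja4 responses came mostly from the same animals. The response of a heated rat, its value minus the mean of the control group, was for Dnajb1 largest in the same 2 rats in kidney (3.81 and 3.78, the other 4 rats reaching at most 3.19), in lung (3.89 and 3.68, the others at most 3.45) and in liver (4.54 and 4.34, the others at most 4.24). In heart these rats had 5.01 and 4.64, and another rat 4.65. Dnaja4 ID 10910084 was largest in the same 2 rats in each organ. They had 2.02 and 1.60 in heart, 5.46 and 5.28 for liver, 2.60 and 2.57 for kidney, and 2.73 and 2.59 for lung. ID 10702405 was largest in them in heart, kidney and lung, while in liver another rat (4.70) came between them (4.98 and 4.66). Dnaja1 and Dnajb4 did not keep this order in every organ: 1 of the 2 rats had the lowest Dnaja1 response in kidney (1.70) and the highest in lung (2.73), and the other had the highest Dnajb4 response in heart, kidney and lung (2.43, 2.03 and 2.14) and the second lowest in liver (2.50). The 2 rats did have the largest Dnaja1 responses in liver (1.55 and 1.51) and the largest Dnajb4 responses in lung (2.14 and 2.10). Over all IDs the correlation of arrays of the same rat was 0.0245. Both of these rats carry tags that begin with 09, a prefix whose meaning the labels do not give. Comparing heated with control rats within a prefix, 2 heated and 2 control rats each (1 heated heart for prefix 12), the Dnajb1 difference was 4.82, 4.54 and 4.32 in heart, 4.64, 4.07 and 3.58 for liver, 3.79, 3.25 and 2.80 for kidney and 3.91, 3.19 and 3.06 for lung for prefixes 09, 11 and 12. For Dnajb1 the order of the prefixes was thus the same in each organ. For Dnaja4 ID 10702405 the corresponding values were 1.46, 1.75 and 0.98 in heart, 4.72, 4.45 and 3.95 for liver, 2.70, 2.59 and 2.15 for kidney and 2.37, 2.39 and 2.07 for lung. ID 10910084 gave 1.96, 1.53 and 0.92 in heart and 5.34, 4.47 and 4.16 for liver. For kidney it gave 2.71, 2.03 and 1.99, and for lung 2.34, 2.21 and 2.20. That ID thus had the prefix order of Dnajb1 in each organ. Dnaja1 gave 2.76, 2.94 and 2.49 in heart, 1.56, 1.35 and 1.27 for liver, 1.84, 1.92 and 1.81 for kidney and 2.69, 2.35 and 2.31 for lung. What the prefix shares was not tested.

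**Figure D4:**
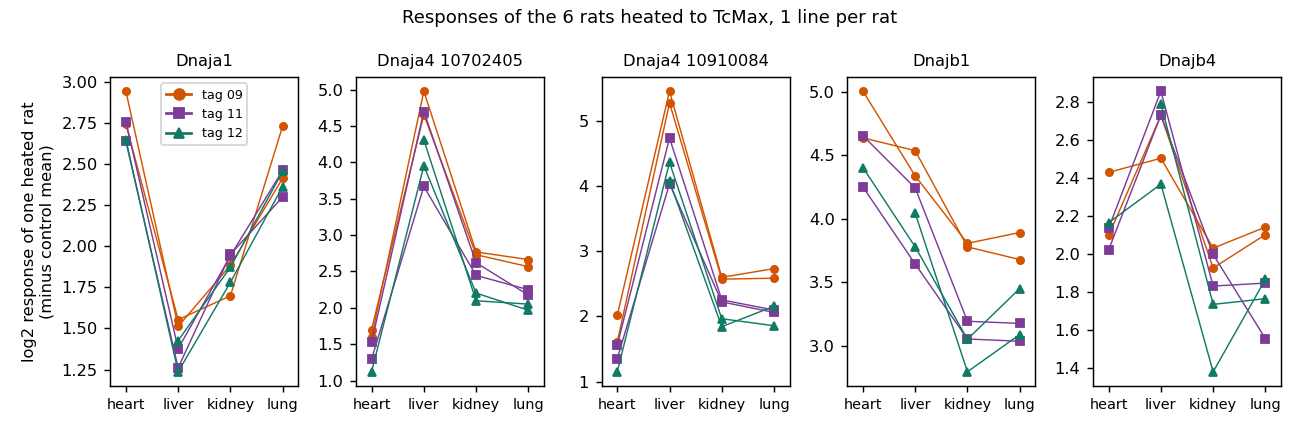
Response of each rat heated to Tc,Max, as log2 value minus the mean of the control group, across heart, liver, kidney and lung for the 5 inducible IDs, 1 line per rat, with colour and marker giving the prefix of the rat's tag. The 2 rats tagged 09 lie above the others for Dnajb1 in liver, kidney and lung and for Dnaja4 ID 10910084 in each organ.

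At 24 h and 48 h no member ID was called in any organ, with or without the fold minimum. At an unadjusted p under 0.05, 2 constitutive IDs passed in heart at 24 h, and at 48 h 1 inducible and 2 constitutive IDs in heart, 2 constitutive IDs in liver and 1 in kidney. Of all IDs, 4.76% passed at 24 h and 17.1% at 48 h in heart, 12.9% and 8.5% for liver, 6.58% and 5.62% for kidney, and 2.17% and 6.52% for lung. Over all IDs, the shares called at 24 h were 0.0103% higher and 0.00685% lower in heart, 0.0308% and 0.0411% for liver, and 0% for kidney and lung, and at 48 h 0.647% and 0.113% for heart, 0.0103% and 0.00342% for liver, 0.00685% and 0% for kidney and 0% for lung. Without the fold minimum they were 0.024% and 0.0137% in heart and 0.253% and 0.298% in liver at 24 h, and at 48 h 1.25% and 0.445% in heart, 0.0103% each way in liver, 0.0205% higher in kidney and 0.00342% lower in lung. Dnajb1 had 52.1, 74.0 and 81.8 in heated hearts at 24 h, against 45.2, 70.6 and 88.4 in control hearts, and 123 as the median of heated livers, against 148 in control livers. These groups overlapped, and the 24 h differences were 0.05 ± 0.12 for heart, -0.26 ± 0.16 for liver, 0.16 ± 0.14 for kidney and 0.11 ± 0.12 for lung. Dnaja4 ID 10702405 had 57.3, 63.2 and 97.9 in heated livers at 24 h, against 48.8, 59.7 and 83.7 in control livers, which also overlapped. Heated and control rats were apart in recovery for 1 member ID, Dnajb2 in liver at 48 h, where heated livers read 443 to 517, against 543 to 656 in control livers, a difference of -0.27 ± 0.09 that did not pass (adjusted p = 0.35). All heated arrays lay below all control arrays for 1.7% of IDs there, and above them for 1.03%. In the other organs and times these shares were 0.476% below and 0.65% above (heart, 24 h), 0.507% and 0.318% (heart, 48 h), 0.644% and 0.452% (liver, 24 h), 0.113% and 0.164% (kidney, 24 h), 0.0308% and 0.106% (kidney, 48 h), 0.11% and 0.065% (lung, 24 h) and 0.233% and 0.0958% (lung, 48 h).

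The response at each recovery time was set against that at Tc,Max within each organ. By an adjusted p under 0.05 and a 2-fold change, all 5 inducible IDs had a smaller response at 24 h and at 48 h in all 4 organs, where 0.606% (24 h) and 0.77% (48 h) of all IDs were called smaller in heart, 1.46% and 1.39% for liver, 0.667% and 0.613% for kidney, and 0.893% and 0.955% for lung. Larger responses were called for 0.192% and 0.931% of all IDs in heart, 0.883% and 0.938% for liver, 0.236% and 0.188% for kidney, and 0.277% and 0.315% for lung. The Dnajb1 response at 24 h differed from that at Tc,Max by -4.54 ± 0.18 for heart, -4.36 ± 0.23 for liver, -3.12 ± 0.20 for kidney and -3.27 ± 0.17 for lung. The smallest of these changes was that of Dnaja4 ID 10702405 in heart at 24 h, -1.17 ± 0.26 (adjusted p = 0.0077). No constitutive ID was called with the 2-fold minimum, while Dnajb2 in liver at 48 h changed by -0.82 ± 0.12 (adjusted p = 2.22e-05) and Dnajb5 in heart at 24 h by -0.65 ± 0.15 (adjusted p = 0.00985). Control rats at 24 h and 48 h were also set against control rats at Tc,Max, and no member ID was called in any organ. Of all IDs, at most 0.0685% were called higher and 0.301% lower between control groups (in kidney and in heart at 48 h), with 0.00685% higher in heart at 48 h, 0.00342% higher in liver at 24 h, 0.0171% higher and 0.0103% lower in kidney at 24 h, 0.0958% lower in kidney at 48 h, and 0% in lung.

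**Figure D5:**
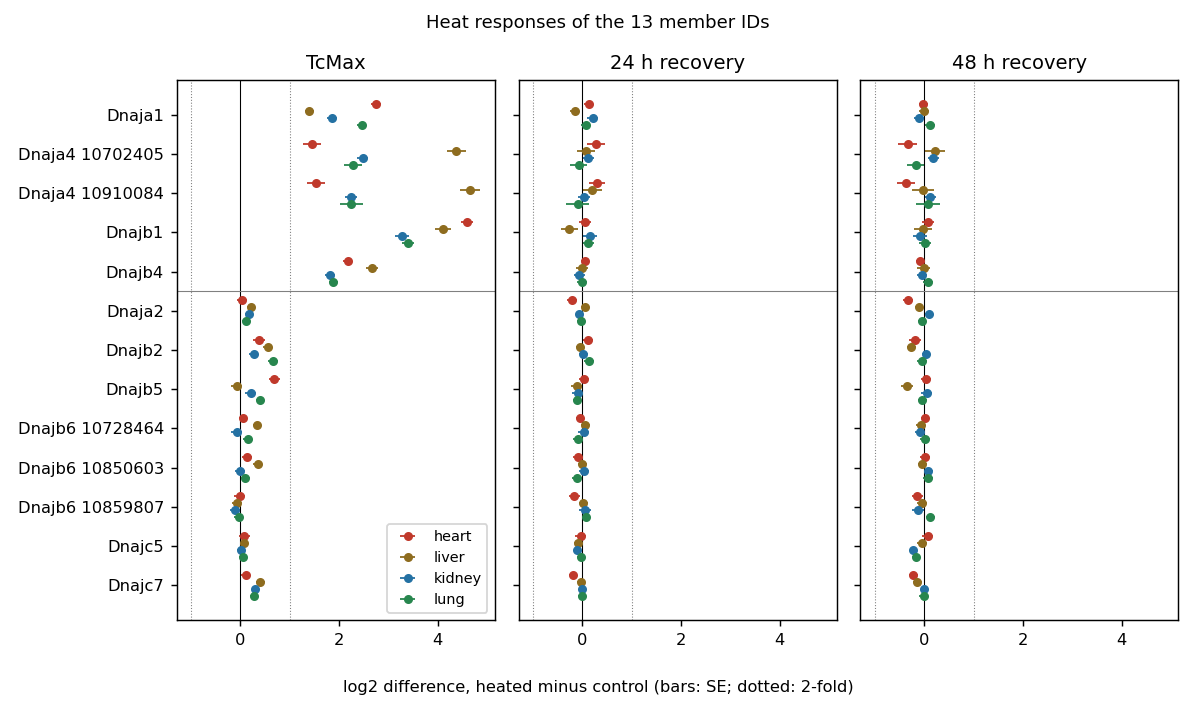
Log2 difference, heated minus control, of the 13 IDs at Tc,Max, 24 h and 48 h, with the SE as a bar, colours for the 4 organs, dotted lines at a 2-fold change and a grey line between inducible (upper) and constitutive (lower) IDs. At Tc,Max the inducible IDs lie between 1.39 and 4.66, and at 24 h and 48 h between -0.37 and 0.30.

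Among the heated hearts at 48 h, Dnaja4 varied widely. Dnaja4 ID 10702405 had 662, 658, 252, 380 and 757 (replicates 1, 2, 3, 5 and 6), against 565, 643 and 744 (lowest, median and highest of 6) in control hearts, and ID 10910084 had 224, 235, 83.3, 104 and 235, against 200, 213 and 240. Replicates 3 and 5 lay below every control heart on both IDs, and the others overlapped with the control hearts or lay above them. The differences were -0.34 ± 0.19 and -0.37 ± 0.18 (adjusted p = 0.371 and 0.287). On the same 5 arrays the summed intensity of the 5 macrophage and leukocyte marker IDs was 669, 1020, 3444, 3736 and 789, against 678 to 860 in control hearts. Of these 5 IDs 3 were called higher, and the median difference of all 5 was 1.35. The summed intensity of the 5 heart muscle markers was 31406, 29917, 14792, 21592 and 30324, against 28786 to 31382 in control hearts. Their part in the Dnaja4 values was not tested. In the same group Dnaja2 had 620, 526, 395, 441 and 616, against 596, 646 and 722 in control hearts, a difference of -0.33 ± 0.10 that did not pass (adjusted p = 0.0698). Over all IDs, 189 were called higher in this group and 33 lower, against 3 and 0 without replicate 3 and 1 and 0 without replicate 5. Had replicate 4 been kept, Dnaja2 (-0.42, adjusted p = 0.0177) and Dnajc7 (-0.30, adjusted p = 0.0432) would have passed the adjusted p, and no ID the 2-fold minimum as well. On that array 8 of the 13 IDs lay outside the range of all other hearts, and the share of all IDs that did so was not computed.

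Beyond the members, the DnaJ genes of other compartments gave 1 call with the 2-fold minimum at Tc,Max, and partners of the Hsp70 cycle gave several in each organ. Of 25 IDs of Hsp70 partners (15 of 19 listed genes), 4 were called higher for heart, 13 for liver, 8 for kidney and 16 for lung, and none lower, at median differences of 0.85, 1.11, 0.74 and 1.23. Of all IDs, 0.818%, 1.22%, 0.767% and 0.883% were called higher, and 0.192%, 0.811%, 0.127% and 0.315% lower. Hsph1, the Hsp110 nucleotide exchange factor, differed by 3.89 ± 0.15 for heart, 3.63 ± 0.21 for liver, 3.54 ± 0.19 for kidney and 3.97 ± 0.17 for lung. Bag3, an Hsp70 exchange factor linked to autophagy, differed by 2.38 ± 0.14, 4.0 ± 0.16, 3.04 ± 0.14 and 3.51 ± 0.12 in the same order. Hsp90aa1, the inducible Hsp90, and Stip1, which bridges Hsp70 and Hsp90, were also called in each organ. Of 8 IDs of DnaJ genes of the endoplasmic reticulum, 1 was called, Dnajb9 in liver (1.09 ± 0.16, adjusted p = 3.26e-06). None of 6 IDs of mitochondrial DnaJ genes and none of 23 IDs of other DnaJ genes were called in any organ. Without the fold minimum, 18, 21, 21 and 19 of the 25 IDs of Hsp70 partners rose in heart, liver, kidney and lung, and none fell. Of the 8 IDs of the endoplasmic reticulum 2, 2, 3 and 3 rose in the same organs, and 1 fell in liver. Of the 6 mitochondrial IDs 1 fell in liver, and 2 fell and 1 rose in lung. Of the 23 others 1, 6, 4 and 4 fell, and 1 rose in liver and 1 in lung. By the same criterion 2.7%, 7.72%, 3.97% and 6.96% of all IDs rose, and 2.5%, 12.4%, 4.85% and 9.06% fell.

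Likeness of pattern was measured as the root mean square of the differences between 2 IDs over the 12 comparisons of heated with control rats. The nearest named ID to Dnajb1 was Hsph1 (0.37), followed by Zfand2a (0.56) and Nr4a3 (0.63). For Dnaja1 they were an ID annotated Mdh1b (0.17), Cacybp (0.27) and Ccdc117 (0.28). For Dnaja4 ID 10702405 they were Uspl1 (0.50), Bag3 (0.52) and Chac1 (0.53), and for Dnajb4 Dusp8 (0.27), Uspl1 (0.28) and Tent5a (0.28). Chac1 shared with Dnaja4 a response that was smallest in heart (0.40) and largest in liver (3.51).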

How the data were processed

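Labelled cDNA from whole-organ RNA was hybridised to rat gene arrays of Affymetrix. The deposited values are linear PLIER intensity: the authors ran iterPLIER organ by organ (Affymetrix Expression Console 1.1, per the labels), with library files of the rat genome build rn4. Their offset of 16 is not in the deposited values and was added here before log2. Depth has no counterpart on arrays, so the number of arrays limits the precision.

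Members were the IDs with a single member symbol in the platform annotation. The members, the split into inducible and constitutive and the other gene lists were chosen with earlier results of these data known. Genes outside the members were named by rule: up to 4 called IDs with the largest change in each list, and the 3 nearest patterns.

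In R 4.3.3 with limma 3.58.1, each organ was fitted with 1 mean per group over all 29214 IDs, and p-values were adjusted over all of them (Benjamini-Hochberg). The methods' filter on variation served as an alternative. A call needed an adjusted p under 0.05 and a 2-fold change. Responses of organs were compared in a joint fit with the rat as a random block (correlation 0.0245), at an adjusted p under 0.05. The replicate numbers of heated and control rats name different animals and do not pair them. No array repeated another. Fits were tested on simulated data. Figures were drawn with matplotlib. Within-prefix differences were chosen after seeing the data. Promoter sequences come from RefSeq (GRCr8), whose coordinates were not set against those of the arrays' build.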

Additional observations from a re-analysis of the deposited data

Results flagged for a closer look

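Of 312 sets of values (13 IDs in 24 groups of 5 or 6 arrays), 21 held an array far from the others by Dixon's ratio of gap to range, where chance gives about 1 in 20, or 15.6. The ratios are given with the intensity of that array and the range of the others.

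Several lay at Tc,Max. Among heated rats, Dnajb2 in heart replicate 5 (0.83) read 672, against 918 to 979, Dnajb5 in heart replicate 3 (0.729) read 755, Dnajb5 in liver replicate 3 (0.66) read 163, Dnaja1 in lung replicate 2 (0.626) read 4929, against 3651 to 4085, and Dnajb6 ID 10859807 in lung replicate 1 (0.63) read 133. Among control rats, Dnajb4 in liver replicate 6 (0.632) read 451, Dnajb2 in kidney replicate 6 (0.665) read 417, and Dnajb1 in lung replicate 6 (0.763) read 154, against 90.6 to 103. These 3 control arrays come from the same rat.

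At 24 h, Dnajb4 in heated liver replicate 5 (0.674) read 482, against 309 to 357, Dnajb2 in control heart replicate 2 (0.63) read 611, and Dnajb4 in control lung replicate 3 (0.662) read 536. At 48 h, Dnaja4 ID 10702405 stood highest in heated liver replicate 4 (0.798), at 136 against 52.6 to 64.5, and in heated kidney replicate 6 (0.698), at 136 against 84.4 to 97.9, both from 1 rat. The same rat had the lowest Dnajb1 value of the heated hearts at 48 h (0.921), 63.9 against 91.6 to 94.4. Other heated arrays at 48 h were kidney replicate 1 for Dnajb4 (0.711, at 508), kidney replicate 4 for Dnajb6 ID 10728464 (0.637, at 543), lung replicate 3 for Dnajb2 (0.715, at 247) and lung replicate 2 for Dnajc5 (0.842, at 315). Control arrays at 48 h were heart replicate 4 for Dnajb6 ID 10850603 (0.704, at 261), kidney replicate 6 for Dnajb6 ID 10728464 (0.663, at 934) and lung replicate 3 for Dnaja4 ID 10910084 (0.643, at 16.5 against 73.4 to 141).

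The response at Tc,Max differed between organs for 5 of 13 member IDs (heart against liver), 3 (heart against kidney), 2 (heart against lung), 6 (liver against kidney), 6 (liver against lung) and 1 (kidney against lung). It changed for 5 IDs at 24 h and for 5 at 48 h in each organ. The heart array left out, heated replicate 4 at 48 h, held the lung transcript Sftpc at 8695, against at most 173 on all other hearts.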

How the results depend on the processing

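The counts of member IDs called were recomputed under other settings: only the more variable IDs, an offset of 1, quantile normalization, no dim IDs, the replicate number or the rat tag prefix as a block, only the 2 groups compared, no variance moderation, no fold minimum, and each array left out. Over 34 comparisons, 222 of 233 values stayed within 1.5 times the main count. With no fold minimum the count at Tc,Max was 10 in liver and 8 in lung, 5 in each with it, the count of changed responses in liver at 48 h was 8 (5 with it), and that of control differences in kidney at 48 h was 2 (0 with it). For changed responses and control differences the shares over all IDs were computed only with the fold minimum. An exact permutation test took each rat's difference between the organs of a pair and permuted the heated and control labels between rats. At its unadjusted p under 0.05, 8 IDs differed for heart against liver, 6 for heart against kidney, 6 for heart against lung and 3 for kidney against lung. For liver against kidney and liver against lung the counts stayed within 1.5 times the main count of 6, and so are not listed. It was run on the member IDs alone, so these counts have no share over all IDs to stand against. With an offset of 1, heart against lung kept 1 ID. Leaving out single rats gave 1 to 2 for heart against lung and 1 to 2 for kidney against lung, the added ID being Dnajb2 (adjusted p = 0.0446) without the rat of control kidney replicate 6. The replicate block left 5 member IDs called in each organ at Tc,Max and 0 at 24 h and 48 h, and changed no call. With quantile normalization the Dnaja1 difference of liver against kidney was -0.28 and no longer passed (adjusted p = 0.253), and with an offset of 1 the Dnajb1 difference of liver against lung, 0.67, did not either (adjusted p = 0.0509). No heated minus control difference of a member ID changed its call among 1515 refitted values, counted per ID, comparison and setting. Of the fits with 1 array left out, only the lowest and highest difference entered this count. Over all IDs, an offset of 1 gave 180 lower calls at Tc,Max in heart (56 with 16), 553 higher and 713 lower in liver (357 and 237), and 131 lower in kidney (37), and no fold minimum gave 788 and 729 in heart (239 and 56) and 2256 and 3633 in liver. Heart at 48 h gave 1 and 0 with only its 2 groups in the fit (189 and 33).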
